A study of Homo sapiens with 6 samples.

Results

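The genes described here are 9 genes of MHC class I antigen presentation: the heavy chains HLA-B, HLA-C, HLA-E and HLA-F, the light chain B2M, the peptide transporter subunits TAP1 and TAP2, the loading factor TAPBP and the transactivator NLRC5. They were chosen by name, as the rows on the primary chromosomes that carry these symbols. Each matched 1 row of the 32192 genes with counts and 1 row of the 31951 genes with FPKM. FPKM is fragments scaled to a transcript length and to the size of the library. Which length was used for each gene is not described, and the order of FPKM between genes depends on it. All 9 passed the filter on low counts, which left 16971 genes for testing.

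The study measured polyadenylated RNA of A549 cells, a non-small-cell lung cancer line, by stranded paired-end sequencing. The APEX1-OE group (3 libraries) received APEX1 in the plasmid pIRES-hrGFP-1a, and the Ctrl group (3 libraries) received a control plasmid. Both groups were the same line in the same medium, the backbone of the control plasmid is not described, and neither is a sorting of the cells that took a plasmid up. Nothing in the labels says that the libraries of a group came from separate cultures, so the tests measure the spread between these libraries, which may be technical.

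Total counts were between 28131955 and 41009197. APEX1, which encodes a DNA repair endonuclease, was read first as the check of the labels, and its FPKM was 617.5, 680.3 and 768.23 in APEX1-OE and 128.84, 126.26 and 123.84 in Ctrl. The A549 identity was checked with epithelial keratins, of which KRT8 had 2558 to 3562 FPKM and KRT18 2011 to 2838, while EPCAM was low at 0.18 to 0.52 FPKM. The leukocyte gene PTPRC held 0 or 1 counts per library, and the class II genes HLA-DRA and HLA-DRB1 held at most 1 and 2 counts. Of the 8 leukocyte markers 6 were found and summed to 5.60 to 8.23 CPM (counts scaled to the size of the library by TMM) in APEX1-OE and 7.41 to 9.48 in Ctrl, nearly all of it from CD14 and ITGAM, while the other 4 held at most 3 counts each. The 3 endothelial markers held at most 10 counts each. The 5 fibroblast markers summed to 6.49 to 8.98 CPM in APEX1-OE and 7.26 to 8.48 in Ctrl, with COL1A1 at 121 to 188 counts, DCN at 17 to 72, LUM at 19 to 67 and COL1A2 at most at 1. In these bulk libraries, fewer cells that express a gene and less of its RNA per cell cannot be told apart.

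A class I molecule is a heavy chain that spans the membrane, bound to the soluble light chain beta-2-microglobulin, and it shows a short peptide from inside the cell to CD8+ T cells. The peptides are cut by the proteasome, carried into the endoplasmic reticulum by the TAP1 and TAP2 heterodimer, and loaded with the help of tapasin, the product of TAPBP. Interferons raise the genes of this pathway through elements in their promoters, and NLRC5 acts on the same promoters together with factors that bind an X and Y box. Tumour cells of the lung often carry less class I at their surface.

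Promoter elements were read from the RefSeq promoter table (build GRCh38.p14), which held an entry for 7 of the 9 genes, all but HLA-E and NLRC5. The 250 bases before the start were searched on both strands for 4 short motifs: TTTCNNTT, the core of an interferon-stimulated response element, GGNNTTNCC, a pattern of NF-kappaB sites, TGACG, the core of a cAMP response element, and CCAAT. The stretches that hold the matches are shown so that the promoters of the heavy chains, B2M, the TAP genes and TAPBP can be read side by side. Matched letters are in capitals, either as spelled or as their reverse complement, and the rest is in lower case. Each line is the reference sequence, 5′ to 3′ on the gene's own strand, and the alleles of A549 may differ from it.

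HLA-B, chr6:31357226-31357360, minus strand: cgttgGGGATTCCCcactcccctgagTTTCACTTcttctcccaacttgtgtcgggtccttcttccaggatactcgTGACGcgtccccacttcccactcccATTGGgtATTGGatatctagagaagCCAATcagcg
HLA-C, chr6:31272139-31272289, minus strand: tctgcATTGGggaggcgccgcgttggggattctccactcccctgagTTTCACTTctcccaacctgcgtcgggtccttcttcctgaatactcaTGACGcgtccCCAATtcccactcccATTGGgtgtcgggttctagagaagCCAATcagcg
HLA-F, chr6:29723273-29723386, plus strand: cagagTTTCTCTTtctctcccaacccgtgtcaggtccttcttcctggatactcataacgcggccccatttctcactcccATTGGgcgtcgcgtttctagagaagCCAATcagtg
B2M, chr15:44711370-44711477, plus strand: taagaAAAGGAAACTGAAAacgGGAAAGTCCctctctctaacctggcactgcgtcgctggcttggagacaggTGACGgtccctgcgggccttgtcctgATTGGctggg
TAP1, chr6:32853762-32853954, minus strand: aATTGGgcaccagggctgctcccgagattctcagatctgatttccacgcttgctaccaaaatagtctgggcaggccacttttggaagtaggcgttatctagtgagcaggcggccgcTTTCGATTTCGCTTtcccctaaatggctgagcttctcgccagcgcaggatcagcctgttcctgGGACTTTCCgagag
TAP2, chr6:32838765-32838806, minus strand: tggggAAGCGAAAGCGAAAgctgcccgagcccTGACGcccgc
TAPBP, chr6:33314079-33314179, minus strand: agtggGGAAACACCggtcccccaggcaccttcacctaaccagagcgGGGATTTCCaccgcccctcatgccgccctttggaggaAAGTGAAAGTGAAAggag

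The interferon core TTTCNNTT was present in all 7 of these promoters, against 20.3% of the 35116 promoters of the table. It lay at -155 to -148 from the RefSeq start in HLA-B, at -151 to -144 in HLA-C and at -156 to -149 in HLA-F. In B2M, TAP1, TAP2 and TAPBP it matched as a pair of copies that overlap each other, which gives the long run of capitals. GGNNTTNCC was found in 14.98%, TGACG in 21.2% and CCAAT in 32.0% of all promoters. HLA-B and B2M held all 4 motifs, as did 0.174% of all promoters, and the other 5 genes lacked at least 1 of them. No match to GGNNTTNCC was in the windows of HLA-C, HLA-F and TAP2, none to TGACG in those of HLA-F, TAP1 and TAPBP, and none to CCAAT in those of TAP2 and TAPBP. The HLA-B and HLA-C promoters were 89.0% identical over their alignment, HLA-B and HLA-F 80.4%, and HLA-C and HLA-F 78.7%. HLA-B, HLA-C and B2M carried TGACG between the interferon core and a CCAAT match. A match is a stretch of letters, and no binding was measured.

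B2M had the highest FPKM of the 9 genes. Its FPKM was 233.62, 311.14 and 386.71 in APEX1-OE (310.5 ± 76.5, SD, n = 3) and 347.66, 304.0 and 318.22 in Ctrl (323 ± 22.3, SD, n = 3). The lowest and the highest B2M values both lay in APEX1-OE, in libraries 1 and 3, with every Ctrl library between them. Only 169 genes, 0.529% of those with FPKM, reached the mean of B2M. The gene lies at chr15:44711358-44718851 (GRCh38).

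HLA-C, which presents to T cells and is read by killer-cell receptors, was the highest heavy chain of the 4. Its FPKM was 242.17, 209.51 and 191.46 in APEX1-OE (214 ± 25.7) and 228.13, 223.89 and 171.54 in Ctrl (208 ± 31.5). HLA-B, the other classical chain of the set, had an FPKM of 163.79, 143.88 and 131.9 in APEX1-OE (147 ± 16.1) and 149.93, 146.05 and 118.59 in Ctrl (138 ± 17.1). In both genes APEX1-OE library 1 was the highest and Ctrl library 3 the lowest, and the groups overlapped.

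HLA-E, whose product binds leader peptides of other class I chains, had an FPKM of 140.04, 132.82 and 122.72 in APEX1-OE (132 ± 8.70) and 130.13, 130.88 and 112.41 in Ctrl (124 ± 10.5). HLA-F, a nonclassical chain, had 33.55, 27.09 and 28.4 in APEX1-OE (29.7 ± 3.41) and 32.62, 29.7 and 25.27 in Ctrl (29.2 ± 3.70). Again APEX1-OE library 1 was the highest and Ctrl library 3 the lowest in both genes. The 4 heavy chains lie on chromosome 6, in the order HLA-F (chr6:29722775-29738528), HLA-E (chr6:30489509-30494194), HLA-C (chr6:31268749-31272130) and HLA-B (chr6:31353872-31367067). In windows of 150 bases of the reference transcripts, HLA-C, HLA-E and HLA-F shared 0% with another gene, and HLA-B shared 20.7% with the pseudogene DHFRP2.

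The transporter subunits had unequal FPKM. TAP1 had 126.03, 111.98 and 96.96 in APEX1-OE (112 ± 14.5) and 107.21, 110.49 and 91.14 in Ctrl (103 ± 10.4), with APEX1-OE library 1 the highest and Ctrl library 3 the lowest. TAP2 had 6.44, 8.24 and 7.79 in APEX1-OE (7.49 ± 0.937) and 6.46, 6.88 and 7.15 in Ctrl (6.83 ± 0.348). Here APEX1-OE library 1 was the lowest, at 6.44 against 6.46 in Ctrl library 1. In CPM this did not hold, since TAP2 was at 54.8 in APEX1-OE library 1 and lowest in Ctrl library 1, at 50.5. FPKM of TAP1 was between 12.4 and 19.6 times that of TAP2 in a library.

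The FPKM of TAP2 is uncertain, because its whole annotated span of 16907 bases lies inside a longer gene on the same strand, ENSG00000250264. That gene runs on over 87.0% of HLA-DOB, a class II gene next to TAP2, and it has a row of its own in the files. It held 3481 to 5351 counts in a library and 33.78 to 39.92 FPKM, while the TAP2 row held 1359 to 2522 counts. TAP2 thus took 28.1 to 33.1% of the counts of both rows, and 16.8% of its 150-base windows of transcript are also in that gene. Against the counts of both rows together, TAP1 counts were 1.98 to 2.65 times as many, without regard to length. TAP1 lies at chr6:32845209-32853816, where all of its 8608 bases are also spanned on the other strand by the longest annotated form of PSMB9.

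TAPBP, the bridge between TAP and the empty heavy chain, had an FPKM of 36.68, 34.12 and 35.29 in APEX1-OE (35.4 ± 1.28) and 34.7, 36.51 and 31.69 in Ctrl (34.3 ± 2.43). In FPKM it had the smallest spread of the 9 genes, with a highest value 1.16 times the lowest, against 1.66 times for B2M. In CPM this did not hold, since TAPBP ran from 154 to 212 and TAP2 only from 50.5 to 59.4. NLRC5 had an FPKM of 9.38, 9.6 and 7.73 in APEX1-OE (8.90 ± 1.02) and 8.56, 8.28 and 7.48 in Ctrl (8.11 ± 0.560). Ctrl library 3 was the lowest for TAPBP and NLRC5, and the groups overlapped for both. TAPBP lies at chr6:33299694-33314284 and NLRC5 at chr16:56989485-57083531, away from the MHC.

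**Figure D1:**
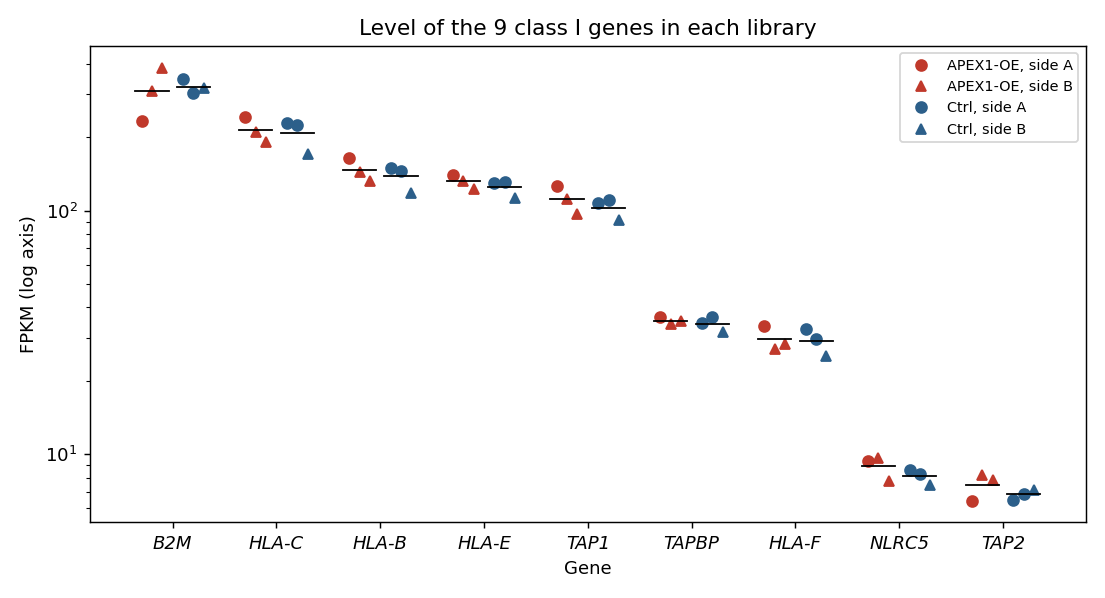
FPKM of the 9 genes on a log axis, ordered by the mean of all 6 libraries, with 1 symbol per library (red APEX1-OE, blue Ctrl) and a black line at each group's mean. Circles and triangles mark the sides of the first principal component, and the groups overlap for every gene.

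By the mean FPKM of the 6 libraries the order was B2M, HLA-C, HLA-B, HLA-E, TAP1, TAPBP, HLA-F, NLRC5 and TAP2. Each neighbour in this order was higher than the next in 6 of 6 libraries, except B2M over HLA-C and NLRC5 over TAP2, which held in 5 of 6. B2M was below HLA-C in APEX1-OE library 1, where its FPKM was 0.965 of that of HLA-C. In CPM, which is not scaled to length, B2M was above HLA-C in that library, at 770 against 634. The ranges of HLA-B and HLA-E overlapped across libraries, as did those of HLA-E and TAP1, TAPBP and HLA-F, and NLRC5 and TAP2, whereas those of HLA-C and HLA-B, TAP1 and TAPBP, and HLA-F and NLRC5 did not. In total the 9 genes took between 0.267% and 0.298% of a library's counts.

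Most of the 9 genes moved over the libraries in 1 pattern, in which the groups overlapped. The first principal component of all tested genes held 72.6% of the variance and put APEX1-OE library 1 and Ctrl libraries 1 and 2 on 1 side (side A) and APEX1-OE libraries 2 and 3 and Ctrl library 3 on the other (side B). CPM of HLA-B, HLA-C, HLA-E, HLA-F, TAP1, TAPBP and NLRC5 were highest in APEX1-OE library 1 and lowest in Ctrl library 3. For HLA-B, log2 CPM lay 0.38 above its mean in the former and -0.35 from it in the latter. B2M differed, with its lowest log2 CPM of -0.26 around its mean in APEX1-OE library 1 and its highest values, 0.19, in Ctrl library 1 and APEX1-OE library 3. TAP2 stayed within -0.10 and 0.13 of its mean.

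Over the 6 libraries Pearson's r of log2 CPM was 0.995 between HLA-B and HLA-C, 0.996 between HLA-B and HLA-E, 0.993 between HLA-E and TAP1, and 0.963 between TAP1 and NLRC5. It was -0.37 between HLA-B and B2M and 0.15 between HLA-B and TAP2. These values describe 6 libraries that share the difference between the sides, and 1763 of 16895 other genes, 10.4%, reached an r of 0.95 with the mean of the 9 genes.

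**Figure D2:**
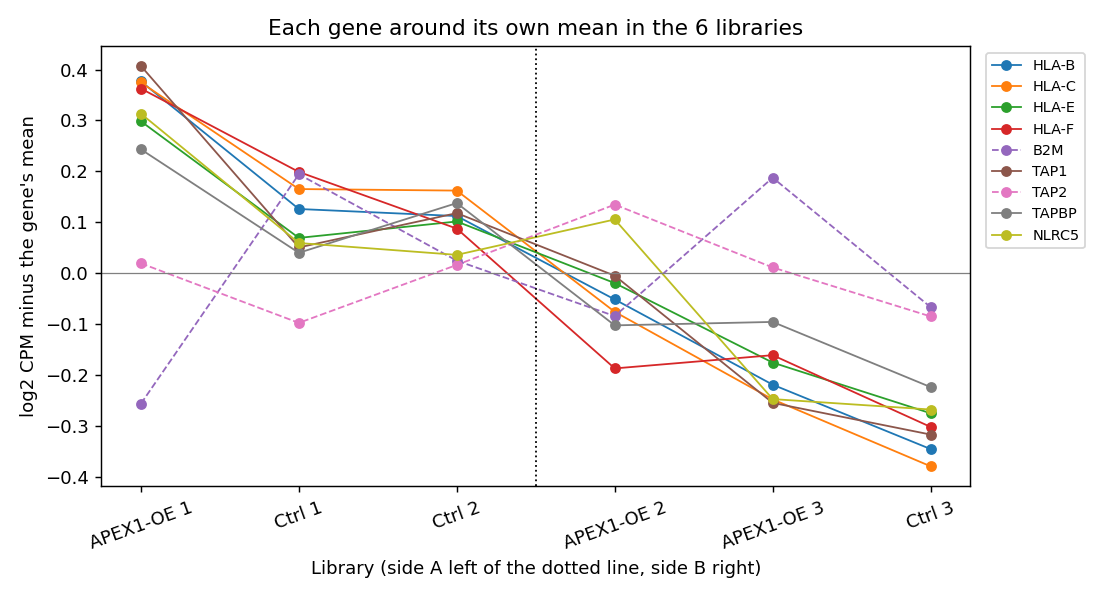
log2 CPM of each gene minus its own mean, in the 6 libraries, with side A left of the dotted line and side B right of it. The 7 genes with solid lines are highest in APEX1-OE library 1 and lowest in Ctrl library 3, and B2M and TAP2 (dashed) are not.

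The base composition of the transcripts was set beside the sides. The exons of HLA-C held 60.9% G and C, those of HLA-E 57.0%, those of NLRC5 56.0%, those of HLA-B and TAPBP 54.2%, those of TAP1 53.7%, those of HLA-F 51.5%, those of TAP2 45.2% and those of B2M 41.4%, against a median of 48.8% over the tested genes. The mean FPKM of side A over that of side B was 1.21 for HLA-C, 1.09 for HLA-E, 1.06 for NLRC5, 1.17 for HLA-B, 1.07 for TAPBP, 1.15 for TAP1, 1.19 for HLA-F, 0.853 for TAP2 and 0.871 for B2M. The 2 genes with the lowest GC share were the 2 with an FPKM ratio under 1, while HLA-F had a higher ratio than HLA-E and NLRC5 at a lower GC share. These ratios are of the FPKM as deposited, without the TMM scaling of CPM, and their size depends on that. FPKM of HLA-B, HLA-C and HLA-F was higher in every library of side A than in every library of side B, and that of TAP2 was lower in every one. In CPM, HLA-E, TAP1 and TAPBP were also higher in every library of side A. CPM of TAP2 overlapped, at 50.5 to 54.8 on side A and 51.0 to 59.4 on side B. So did that of B2M, at 770 to 1052 and 867 to 1047. The sides were drawn from these libraries, and the share of all tested genes with such a split was not counted. Across the 9 genes, the GC share and the log2 FPKM ratio of side A to side B had a Pearson's r of 0.835 and a Spearman's rho of 0.517, as a description of these genes. The labels name no batch that the sides match, and the part of base composition in the sides was not tested.

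The comparison of APEX1-OE with Ctrl asks whether more APEX1 changes the RNA of these genes. None of the 9 passed an adjusted p of 0.05 in edgeR's quasi-likelihood test, where 0.00589% of all tested genes did. At an unadjusted p under 0.05 the count was also 0 of 9, where it was 0.695% of all tested genes. With DESeq2 and with limma, 0 of 9 passed the adjusted threshold. The 1 gene that passed was APEX1 itself, with a log2 fold change of 2.42 ± 0.17 (SE) and an adjusted p of 0.00809, about 5.37-fold higher. The CPM of APEX1-OE and Ctrl overlapped for each of the 9 genes, and they did not overlap for 3.39% of all tested genes.

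The log2 fold change was 0.08 for HLA-B, 0.04 for HLA-C, 0.07 for HLA-E and 0.02 for HLA-F, with SEs from 0.20 to 0.24. It was -0.09 ± 0.19 for B2M, the lowest of the 9, and 0.13 ± 0.22 for NLRC5, the highest. TAP1 and TAP2 both had 0.11, and TAPBP had 0.03. Every adjusted p of the 9 was at 1.00 when rounded, and the smallest unadjusted p of edgeR's quasi-likelihood test was 0.548, for TAP2. The median of the 9 was 0.07, beside 0.03 over all tested genes.

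The intervals give the changes that these data leave possible. The 95% interval of the fold change ran from 0.732 to 1.52 for HLA-B, from 0.700 to 1.50 for HLA-C, from 0.696 to 1.26 for B2M, from 0.751 to 1.56 for TAP1 and from 0.772 to 1.54 for NLRC5. Changes inside these bounds are not excluded by this fit. With exact permutation tests on FPKM, two-sided, p was between 0.3 for NLRC5 and 0.9 for HLA-F, and 0.1 is the smallest p that 3 against 3 libraries allow.

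The direction rested on single libraries. Without APEX1-OE library 1, the log2 fold change of HLA-C was -0.18, of HLA-F -0.20, of HLA-B -0.13 and of TAP1 -0.10, and without Ctrl library 3 the same 4 genes were also below 0. Only B2M and TAP2 kept their sign in all 6 fits with 1 library left out, B2M between -0.22 and -0.01 and TAP2 between 0.07 and 0.14.

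Within the sides, APEX1-OE was set against Ctrl in library 1 against 2 libraries on side A, and in 2 libraries against library 3 on side B. In CPM, every APEX1-OE library lay above every Ctrl library on both sides for 8 of the 9 genes, all but B2M, and so did 17.8% of all tested genes. In FPKM, TAP2 was lower in APEX1-OE on side A, and the share of all genes was not counted in FPKM. The sides were drawn from these same libraries. The ratio of APEX1-OE to Ctrl in CPM was 1.20 on side A and 1.16 on side B for HLA-B, 1.16 and 1.16 for HLA-C, 1.25 and 1.14 for TAP1, and 1.20 and 1.15 for NLRC5. For HLA-E it was 1.16 and 1.13. B2M had 0.775 on side A and 1.09 on side B. On each side, 1 library stands for 1 of the groups, so these ratios have no spread of their own.

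With the side as a term in the fit, none of the 9 genes passed an adjusted p of 0.05, while 0.0236% of all tested genes did. The log2 fold change was 0.24 ± 0.09 for HLA-B, 0.22 ± 0.08 for HLA-C, 0.20 ± 0.08 for HLA-E, 0.26 ± 0.09 for TAP1 and 0.24 ± 0.11 for NLRC5. These 5 genes had an unadjusted p under 0.05 and were higher, as did 8.61% of all tested genes, and edgeR gave them an adjusted p between 0.365 and 0.410. HLA-F had 0.17 ± 0.09, TAPBP 0.14 ± 0.08 and TAP2 0.11 ± 0.10. B2M was at -0.12 ± 0.12. The median of the 9 was 0.20, beside 0.01 over all tested genes. The sides were drawn from these same libraries, so a p with the side as a term is a description of how the genes lie around them.

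When an offset for GC content and exon length was added to the side, the log2 fold change of HLA-C was 0.05 ± 0.06 and that of HLA-E 0.08 ± 0.06. HLA-B was at 0.15 ± 0.06, TAP1 at 0.18 ± 0.06 and TAP2 at 0.18 ± 0.07, and these 3 had an unadjusted p under 0.05 and were higher, as did 5.39% of all tested genes. None passed the adjusted threshold, with an edgeR adjusted p of 0.296 for TAP1 and 0.339 for HLA-B. NLRC5 was at 0.12 ± 0.06.

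Leaving out 1 library with the side as a term changed the calls for 1 library. Without APEX1-OE library 3, HLA-B, HLA-C, HLA-E, TAP1 and NLRC5 passed the threshold, with edgeR adjusted p between 0.000531 for TAP1 and 0.00380 for HLA-E and log2 fold changes between 0.23 and 0.32. In that fit 2864 genes passed, and 11.3% of all tested genes were called higher. Without any other library, none of the 9 passed. All but B2M were above 0 in each of these 6 fits, and B2M lay between -0.37 and 0.09.

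**Figure D3:**
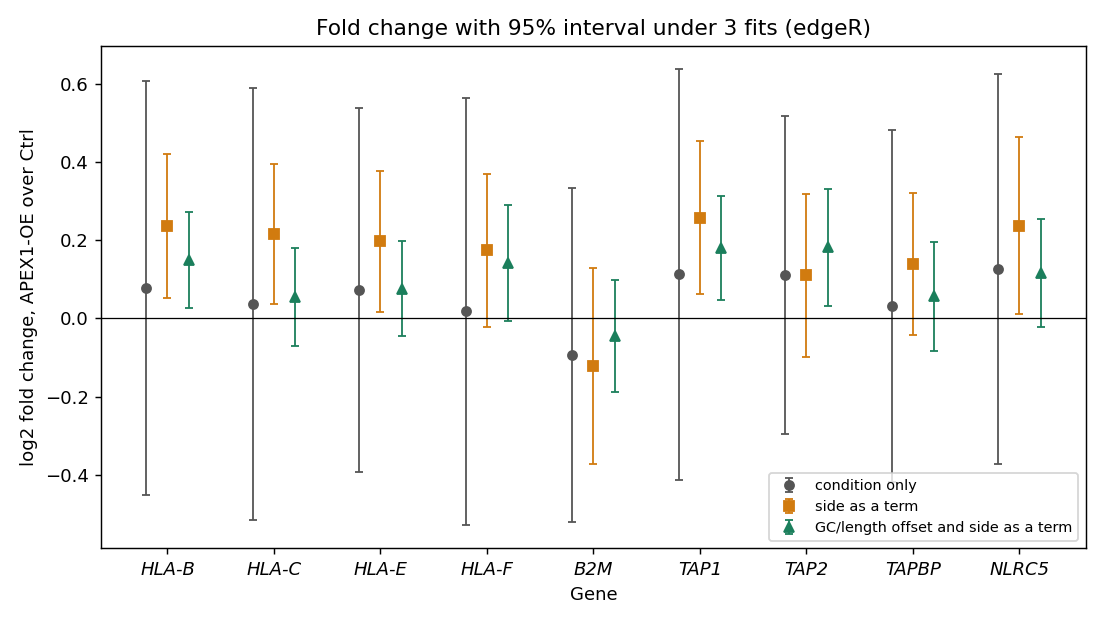
log2 fold change of APEX1-OE over Ctrl with its 95% interval for each gene, under edgeR fits with the condition only (grey), with the side as a term (orange), and with the GC and length offset and the side (green). With the condition only, every interval spans 0, and B2M is the 1 gene below 0 in all 3 fits.

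The balance of heavy and light chains differed more between libraries than between groups. The summed FPKM of HLA-B, HLA-C, HLA-E and HLA-F over that of B2M was 2.48, 1.65 and 1.23 in APEX1-OE (1.79 ± 0.638, SD, n = 3) and 1.56, 1.75 and 1.34 in Ctrl (1.55 ± 0.200, SD, n = 3). The highest and the lowest ratio both lay in APEX1-OE. By side, the ratio was 2.48, 1.56 and 1.75 on side A and 1.65, 1.23 and 1.34 on side B. Mean FPKM of side A over side B was 0.871 for B2M and 1.09 to 1.21 for the heavy chains. The ratio thus also holds the difference between the sides. The ratio of the means was 1.15, with an exact two-sided permutation p of 0.8. Without APEX1-OE library 1 it was 0.929. HLA-C alone over B2M was 1.04 in APEX1-OE library 1 and between 0.495 and 0.736 in the other 5 libraries.

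**Figure D4:**
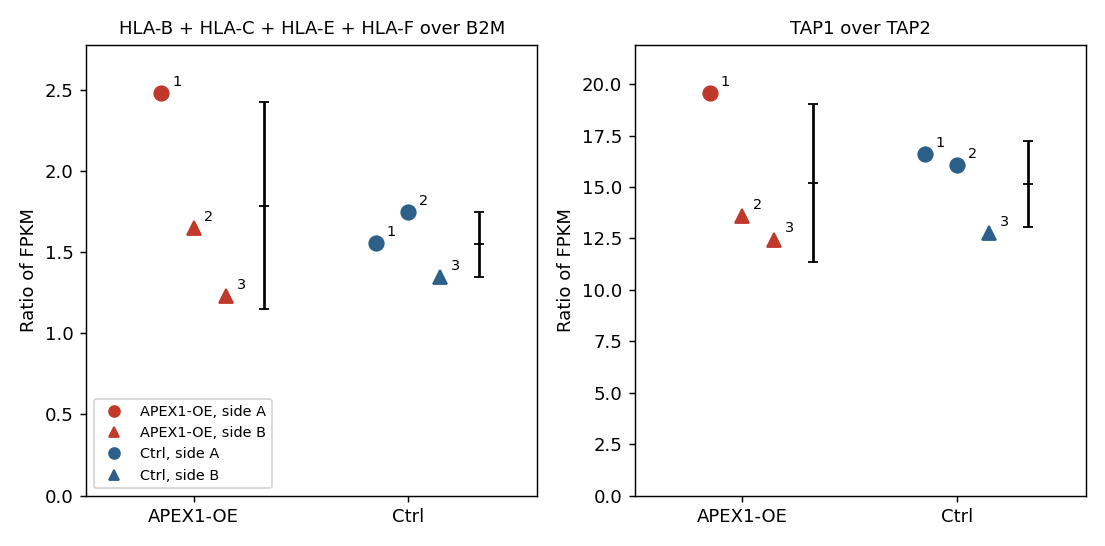
Ratios of FPKM in each library, with the 4 heavy chains over B2M on the left and TAP1 over TAP2 on the right, and each group's mean ± SD as a black bar. Numbers are the library numbers, and APEX1-OE library 1 is the highest in both panels, at 2.48 and 19.6.

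The other genes of the pathway were followed through 64 genes in 7 lists, of which 63 were found and 54 tested. None passed an adjusted p of 0.05 in edgeR's quasi-likelihood test, with 0 at an unadjusted p under 0.05 (0.695% of all tested genes) and 0 called by DESeq2 or limma, while 26 were above 0 and 28 below. With the side as a term none passed, and the unadjusted p was under 0.05 for 3 of 54 genes that were higher (PSMB9, ERAP2 and RELA), beside 8.61% of all tested genes, and for 5 that were lower (CANX, HSPA5, IFNAR2, IFNGR1 and MR1), beside 3.02% of all.

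The catalytic immunoproteasome subunits PSMB8, PSMB9 and PSMB10 cut peptides that fit class I grooves, and PSME1 and PSME2 form the PA28 cap. None of the 5 passed, and 2 were above 0, or 4 with the side as a term. Their log2 fold changes were 0.03 for PSMB9 and PSMB10, -0.05 for PSMB8, -0.07 for PSME1 and -0.09 for PSME2. Mean FPKM was 97.0 in APEX1-OE and 95.2 in Ctrl for PSMB9, the neighbour of TAP1, and 91.5 and 94.4 for PSMB8. With the side as a term PSMB9 was at 0.24 ± 0.09, beside 0.26 for TAP1.

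Of the constitutive proteasome subunits, 0 of 14 passed and 12 were below 0 (9 with the side as a term), from -0.31 for PSMA6 to 0.15 for PSMA4. In the list of trimming enzymes and chaperones 0 of 7 passed, with ERAP2, an aminopeptidase that trims peptides, at 0.67 ± 0.35 and CALR, the chaperone calreticulin, at -0.18 ± 0.19. With the side as a term they were at 0.37 and -0.10. With the condition only and 1 library left out, ERAP2 was between 0.49 without APEX1-OE library 2 and 0.97 without Ctrl library 3. ERAP2 was low, at 0.30 to 0.82 FPKM. CALR reached a mean of 293 FPKM in APEX1-OE and 327 in Ctrl.

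Among the regulators of class I genes 0 of 13 tested genes passed and 11 were above 0, from -0.08 for RFXANK, a subunit of the X box complex, to 0.41 for CREB1, which binds cAMP response elements. With the side as a term 6 were above 0 and 7 below, and CREB1 was at 0.10. With the condition only and 1 library left out, CREB1 ranged from 0.13 without APEX1-OE library 3 to 0.83 without Ctrl library 3. Of the interferon receptors and kinases 0 of 9 passed, from -0.23 for IFNLR1 to 0.58 for JAK2, with 6 above 0, or 4 with the side as a term. JAK2 was at 0.16 with the side as a term. In the condition-only fits with 1 library left out it was between 0.29 without APEX1-OE library 2 and 1.11 without Ctrl library 3. IRF9, the DNA-binding part of the interferon response complex, held 1 to 4 counts, while a gene on the same strand that covers 76.6% of it held 4106 to 5856 counts. PSMA2 and PSMA6 were likewise covered on the same strand, over 100% and 99.95% of their spans, by genes with 1894 to 5328 and 5514 to 9300 counts. PSMA1 was covered over 11.1% by a gene with 1633 to 3421 counts, against 283 to 486 of its own. PSMB10 was covered over 64.1% by a gene with 938 to 1157 counts, against 667 to 934 of its own, IFNAR2 over 59.3% and IL10RB over 68.3% by a gene with 210 to 368 counts, and HLA-DMB over 57.3% by a gene with 19 to 37, against 8 to 23 of its own. How reads in shared stretches were counted is not described, so the rows of all these genes are uncertain, as that of TAP2 is.

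Of the class I-like chains followed beside the 9 genes, 0 of 3 tested passed, and all 3 were below 0. HFE, MR1 and FCGRT, which act in iron uptake, the display of vitamin metabolites and the binding of IgG, had log2 fold changes of -0.06, -0.14 and -0.17, and FCGRT was at 0.07 with the side as a term. HLA-G held at most 2 counts and CD1D at most 15, and neither was tested. In the class II list 3 of 9 genes were tested, with HLA-DMA at -0.12 and HLA-DMB at -0.58 ± 0.36, and none passed.

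**Figure D5:**
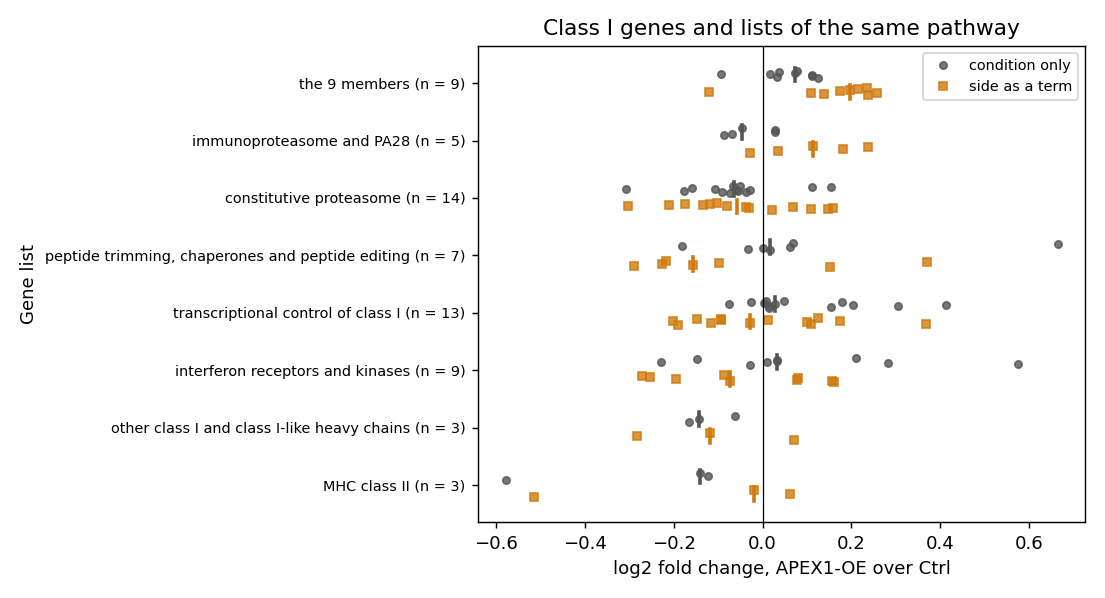
log2 fold change of APEX1-OE over Ctrl for the 9 genes and for the tested genes of each list, with the condition only (grey circles) and with the side as a term (orange squares), and a bar at each median. The median of the 9 genes is 0.07 with the condition only and 0.20 with the side as a term, and that of the constitutive proteasome is -0.06 in both.

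By the rule for likeness, the genes outside the lists with the highest Pearson's r of log2 CPM to the mean of the 9 were DUSP14 (0.999), OGDH, TFAP4, ABCC10 and ATAD3C. For NLRC5 they were MX1, an interferon-induced GTPase, with an r of 0.996, and RRP12, AJUBA, DUSP5 and NCOA5. Each r is over 6 libraries that share the sides, and 490 of 16895 genes, 2.90%, reached 0.95 with NLRC5.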

How the data were processed

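Per the paper's methods and the submitters' processing notes, the authors trimmed the reads (FASTX-Toolkit), mapped them on GRCh38 by means of TopHat2 and kept those with a single best place. The authors deposited counts per gene and, in a second file, FPKM rounded to 2 decimals. The way reads were counted, the annotation and the strand setting are not given in these sources. Reads that match several HLA genes equally would be lost at the unique alignment, and alleles of A549 that differ from the reference can lower a count.

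The deposited counts of the 6 libraries were tested with edgeR 4.0.16 (filterByExpr, TMM, robust quasi-likelihood F test, Benjamini-Hochberg over all tested genes), the condition being the only term. CPM are counts scaled by the TMM library size. FPKM was used for levels between genes and for exact permutation tests. Alternatives were DESeq2 1.42.0, limma 3.58.1 on log2(FPKM + 1) and log2(FPKM + 0.1), other normalizations and filters, the replicate number as a block, the side of the first principal component, an offset from a spline on GC content and exon length, and each library left out. Exons and overlaps were taken from GENCODE 44, matched for 31231 genes, and promoters from RefSeq, with the first entry of a gene that has several. The edgeR fit was tested on simulated counts, with the condition only where no side difference was simulated and with the side as a term where it was. The condition-only fit was not simulated with a side difference, so the simulation says nothing of it in that setting. Intervals and low counts cover the spread between libraries or counting error only.

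The members and gene lists were chosen with earlier results of these data known. The named genes were the 9 members, APEX1, called genes of the lists, the highest and lowest tested gene of each list, all immunoproteasome and other heavy chain genes, and the 5 genes most like the mean of the members and like NLRC5. The genes with an unadjusted p under 0.05 with the side as a term, IRF9, PSMA1, PSMA2 and the gene over TAP2 were named after their values were seen. HLA-DPB1, CD1C and MS4A1 were not analysed here, and 1 other gene of the lists is not reported here.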

Additional observations from a re-analysis of the deposited data

How the results depend on the processing

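With all 6 libraries, none of the 9 genes passed an adjusted p of 0.05 under any alternative, DESeq2, limma, other normalizations and filters, offset and block included. Genes called overall were 10 without the filter on low counts, 4 with the side as a term and 15 with the offset and the side, against 1 in the main fit, and the cause was not tested. The replicate numbers share only a number: same-numbered deviations of APEX1-OE and Ctrl libraries had r of 0.61, -0.52 and 0.70, and libraries did not all correlate best with their own number. With the replicate block 2 genes were called. Pairing by number (replicate block) cannot move the heavy chain to B2M ratio of 1.15, and its exact sign-flip p was 1, with 0.25 the smallest that 3 pairs allow.

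With the upper quartile HLA-F was at -0.014, TAPBP at -0.0021 and PSMB10 at -0.0023. With the offset PSME1 was at 0.016 and PSMA4 at -0.042. With the side as a term PSMB8 was at 0.11, PSME1 at 0.034, FCGRT at 0.070, PSMA4 at -0.13, RFXANK at 0.17 and HLA-DMA at 0.061, and with offset and side PSMB8 at 0.11, PSMA4 at -0.058 and RFXANK at 0.014.

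With 1 library left out, 0 or 1 genes were called, and the log2 fold change ranged from -0.13 to 0.20 for HLA-B, -0.18 to 0.16 for HLA-C, -0.084 to 0.17 for HLA-E, -0.20 to 0.11 for HLA-F, -0.10 to 0.25 for TAP1, -0.11 to 0.11 for TAPBP and -0.023 to 0.26 for NLRC5. The fit without APEX1-OE library 1 gave the lowest value of each of these 7. The range was -0.29 to 0.087 for PSMB8, -0.28 to 0.19 for PSMB9, -0.20 to 0.18 for PSMB10, -0.18 to 0.0060 for PSME1, -0.14 to 0.40 for PSMA4, -0.46 to 0.087 for RFXANK and -0.30 to 0.0064 for HLA-DMA. APEX1 lost its call in 4 of these 6 fits at a log2 fold change between 2.40 and 2.46. The heavy chain to B2M ratio ranged from 0.929 to 1.33.

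Leaving out a library in the fit with the side was an alternative chosen after seeing the data. Without APEX1-OE library 3 it called 2864 of 17214 tested genes, 1942 higher and 922 lower. Of these, 5 were among the 9 genes and 15 were pathway genes. Of the 63 pathway genes found, 54 were tested in the main fit. The directions of the 15 were not counted. With the side as a term, 2 genes were called without Ctrl library 1, 3 without Ctrl library 2 and 13 without Ctrl library 3. B2M was at 0.089 without APEX1-OE library 1.

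Unique alignment, unstated counting of overlapping genes and 3 libraries a group limit these values, and the 95% intervals of the 9 genes do not exclude changes of up to about 1.56-fold.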
